A study of Drosophila melanogaster with 6 samples.

Results

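The Cpr genes of Drosophila melanogaster encode structural proteins of the insect cuticle that carry the Rebers and Riddiford chitin-binding domain. The members were taken by symbol, as all genes whose current symbol is Cpr followed by a number and a capital letter. The gene table of the Release 6 assembly held 70 such genes, and 66 of them had at least 1 probe set annotated to that gene alone, out of 11982 genes so measured on the array. The other 4 were Cpr57A, Cpr65Ax1 and Cpr65Ax2, which had only probe sets annotated to 2 genes at once, and Cpr65Ay, for which no probe set was listed.

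Whole adult flies of 2 genotypes were compared on Affymetrix Drosophila Genome 2.0 arrays, with 3 arrays a group and total RNA from 25 males and 25 females in each sample. The control was the UAS-AMP stock, which carries the transgene for an antimicrobial peptide (AMP) without a driver. The cross, da-GAL4xUAS-AMP, carried the same kind of transgene with da-GAL4, a driver that uses the promoter of the broadly expressed gene daughterless. The labels give neither the peptide nor the age of the flies beyond the adult stage, and no flies with the driver alone were analysed here, so differences are those of the cross as a whole. Whether the 3 samples of a genotype were raised apart is not stated, so the p-values reflect sample-to-sample spread of a kind that could be technical.

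The insect cuticle is an outer skeleton of chitin fibres embedded in protein, secreted by the epidermis beneath it. The chitin-binding domain of Cpr proteins ties them to the fibres, and the mix of cuticle proteins differs between hard plates and soft joints and between larval, pupal and adult cuticle. Cuticle for the adult is laid down before and for some time after the fly leaves the pupal case. Many Cpr genes are known for expression in one stage of life, with peaks around moults.

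No Cpr gene passed the test between the cross and the control. Several of the 12 members with the highest signals instead differed strongly between arrays of the same group. Others varied less, and of these only Cpr65Au was nearly level. Control replicate 3 had the lowest control signal for all 12, by little in Cpr65Au. Cpr92F, for example, had a signal of 1861.5 on that array against 30637.8 and 36707.1 on the other control arrays. Of the 66 genes, 49 lay above the background level in whole adults, and 17 lay within it.

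A gene was called above background when its mean log2 signal over all 6 arrays exceeded that of a limit, taken on each array as the 95th percentile over 27 probe sets of Bacillus genes, which ranged from 90.3 to 123 in signal. Over all genes measured, 10823 of 11982 passed this limit, so it is a low bar. The count of 49 members became 31 when the limit was the lower tertile of all probe sets. It was 43 with the highest Bacillus probe set as the limit and 64 with the median one. Above the limit on all 6 arrays it was 33. The members next above the limit were Cpr47Ec, Cpr64Ac and Cpr65Ea, with mean log2 signals of 6.88, 6.84 and 6.78, and the limit itself was 6.77. Next below it were Cpr62Ba, Cpr30B and Cpr78Cc at 6.74, 6.68 and 6.53. The lowest mean log2 signal of a member was 4.73, that of Cpr23B, and the highest 15.66, that of Cpr49Ae. Signals of different probe sets depend on their probes, so this order is not one of transcript amounts.

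**Figure D1:**
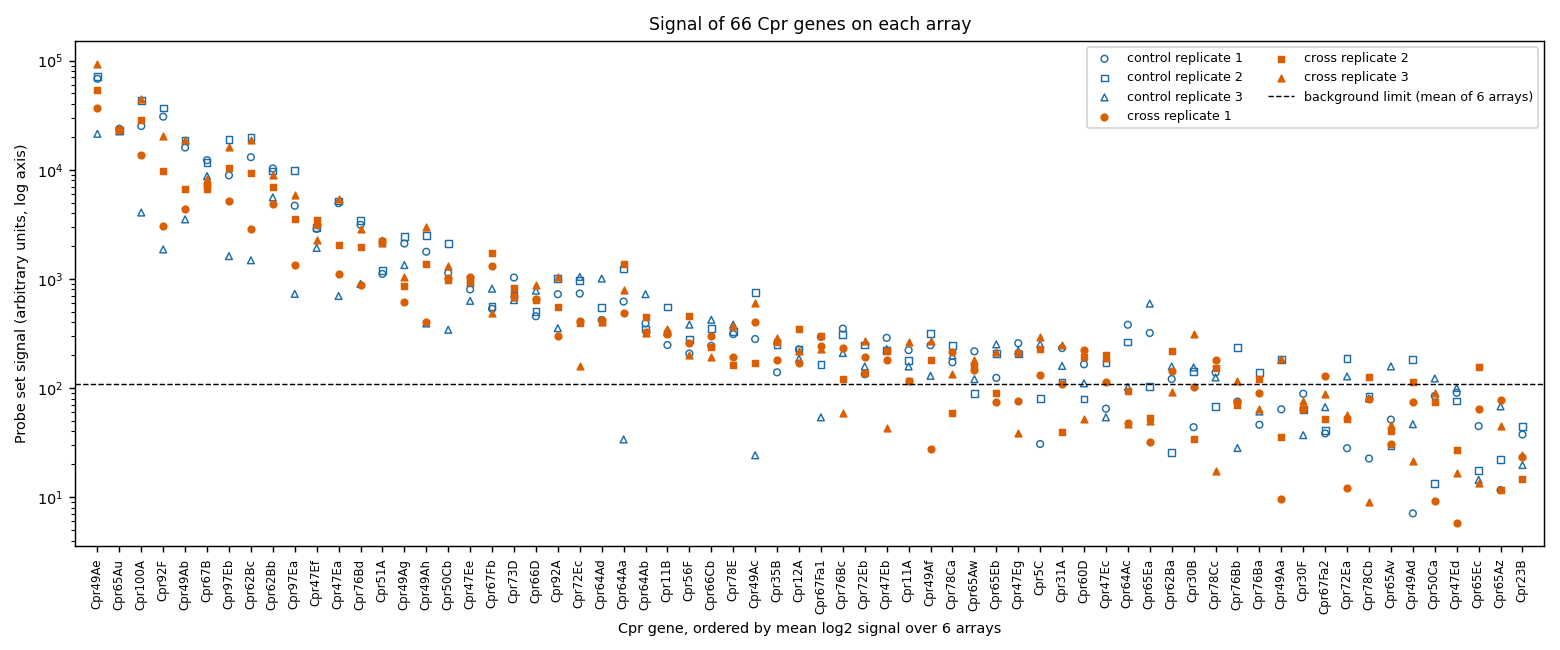
Signal of each of the 66 Cpr genes (log axis, arbitrary units) on the 3 control arrays (open symbols) and the 3 arrays of the cross (filled symbols), ordered by mean log2 signal; the dashed line is the background limit. A total of 49 genes have means above the line, and several of those with the highest signals have control replicate 3 far below the other control arrays.

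Genes whose symbols start alike, not all of them direct neighbours on the chromosome, did not share the same side of the limit in every case. Of the Cpr47E genes, 6 of 7 lay above it, and Cpr47Ed lay at or below the limit of each array in both groups. Of the Cpr49A genes 6 of 8 lay above it, without Cpr49Aa and Cpr49Ad. All 4 Cpr64A genes and both Cpr97E genes lay above it. In the run of 3 neighbouring Cpr62B genes, Cpr62Bb and Cpr62Bc lay above it and Cpr62Ba did not. The Cpr65A genes had 4 measured members of 7 in the gene table, and Cpr65Au and Cpr65Aw lay above the limit while Cpr65Av and Cpr65Az did not. Cpr47Ef had 2 probe sets. The brighter one, used here, had signals of 1922.5 to 3443.4, and the other had 29.6 to 137.7, with a log2 fold change of 0.78 against 0.20 for the one used and control replicate 3 the lowest control array on both. Of the probe sets shared with another gene, one of Obp57d and Cpr57A had signals of 1108.9 to 1937.8, which cannot be split between the odorant-binding protein gene and the cuticle gene. A second probe set of the same pair had signals of 16.5 to 151.3.

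The 12 members with the highest signals are described first. Cpr49Ae had signals of 68101.3, 71775.7 and 21339.3 on control arrays 1, 2 and 3 and of 36862.7, 54004.4 and 93640.8 on arrays 1, 2 and 3 of the cross. Cpr100A had signals of 25123.4, 43231.4 and 4053.4 in the control and 13632.3, 28443.3 and 44707.2 in the cross. In both genes the lowest array was control replicate 3, the highest was replicate 3 of the cross, and the groups overlapped.

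Cpr92F had signals of 30637.8, 36707.1 and 1861.5 in the control and 3046.4, 9688.0 and 20401.9 in the cross. The highest of its 6 arrays was 19.7 times the lowest. Cpr62Bc had signals of 13034.7, 19869.8 and 1480.8 in the control and 2873.0, 9265.2 and 18653.1 in the cross, and those of Cpr49Ab were 15977.5, 18419.0 and 3509.0 against 4376.8, 6635.9 and 18835.0. Low values again fell on control replicate 3 and on replicate 1 of the cross.

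The neighbouring genes Cpr97Ea and Cpr97Eb had the same order of arrays within each group. Cpr97Eb had signals of 8884.7, 19014.2 and 1615.4 in the control and 5133.9, 10388.2 and 16195.7 in the cross. Cpr97Ea had signals of 4678.2, 9857.4 and 728.7 in the control and 1339.1, 3567.3 and 5882.0 in the cross. Cpr47Ea went from 696.8 on control replicate 3 to 5420.6 on replicate 3 of the cross, with 4936.6 and 5172.3 on the other control arrays.

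Others of the 12 varied less. Cpr65Au had signals of 23709.3, 22768.7 and 22497.0 in the control and 23024.8, 23365.3 and 24051.8 in the cross, so that its highest array was 1.07 times its lowest. Cpr62Bb ranged from 4886.3 to 10274.4, Cpr67B from 6677.3 to 12226.8 and Cpr47Ef from 1922.5 to 3443.4. The low arrays of the group of 12 were therefore not low for every member: Cpr65Au was level across all 6.

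**Figure D2:**
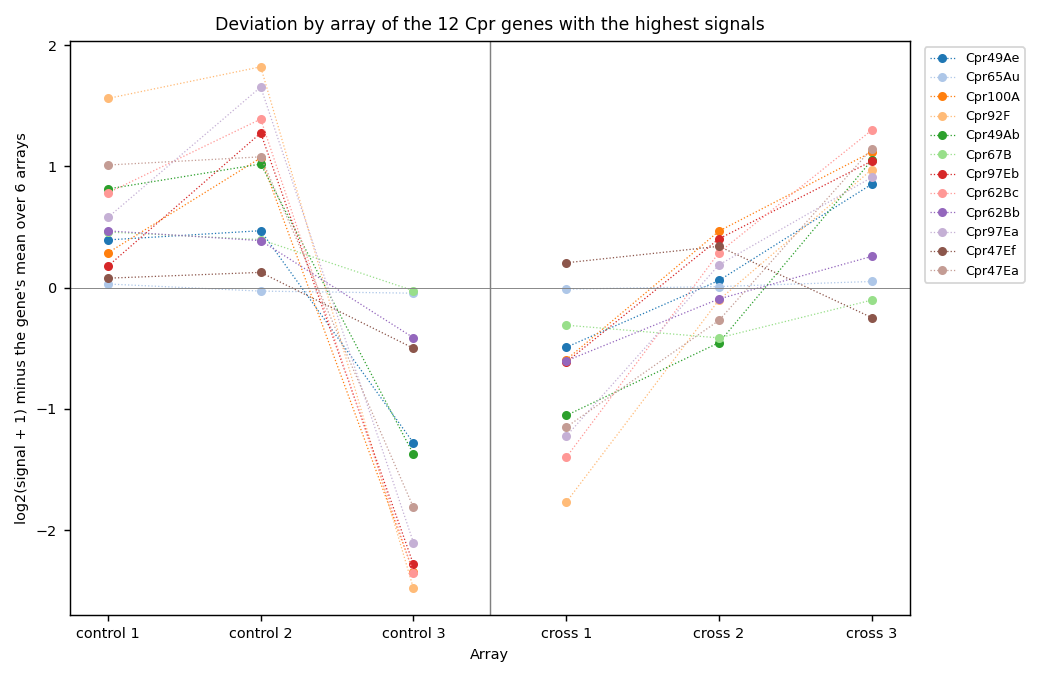
Deviation of log2(signal + 1) from the gene's mean over the 6 arrays, for the 12 Cpr genes with the highest signals, with one colour a gene; dotted lines only link the points of a gene. Control replicate 3 is the lowest control array for all 12 genes and replicate 1 of the cross the lowest array of the cross for 10 of them, while Cpr65Au stays near 0 throughout.

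The order of the arrays was set beside that of all genes. Control replicate 3 was the lowest control array and replicate 1 of the cross the lowest array of the cross in 19 of 49 Cpr genes above background, or 38.8%. The same held in 13.7% of all genes above background. The genes above background were split by signal into 3 equal classes, and in the brightest it held in 8 of 9 Cpr genes and in 16.8% of all. In 50.1% of all genes control replicate 3 was the highest of the control arrays, and in the Cpr genes above background it was so in 13 of 49. This is a description of these arrays, and the members share the same 6 RNA samples.

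Members for which control replicate 3 was instead the highest control array all lay outside the 12 with the highest signals. Cpr51A was the brightest of them. Signal did not sort the members, as control replicate 3 was the lowest control array in dimmer ones too, such as Cpr49Ag and Cpr64Aa. Cpr64Ab had signals of 391.2, 347.5 and 724.2 in the control and 328.7, 443.7 and 316.2 in the cross. Cpr64Ad, of the same run of neighbouring genes, had 420.5, 546.4 and 1005.6 in the control and 422.6, 409.7 and 404.3 in the cross. Cpr64Aa, of the same run of genes, had 619.7, 1231.7 and 33.8 in the control and 482.2, 1373.2 and 789.4 in the cross. Within one run of neighbours, control replicate 3 was thus the highest control array for some genes and the lowest for others.

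The spread within groups was measured by the residual SD of log2 signals after the group means were taken out. In the brightest of the 3 classes, its median was 0.15 over all 3608 genes and 1.21 over the 9 Cpr genes, of which 7 lay above the 95th percentile of the genes in that class. Cpr92F had the highest residual SD among the 9, 1.97, and Cpr65Au the lowest, 0.04. In the middle class the median was 0.20 over all genes and 0.98 over 7 Cpr genes, 4 of them above the 95th percentile. In the dimmest class it was 0.36 over all genes and 0.69 over 33 Cpr genes, 4 of them above the 95th percentile. The highest array had at least 5 times the signal of the lowest in 5 of 9, 3 of 7 and 13 of 33 Cpr genes in the brightest, middle and dimmest class. The corresponding shares of all genes were 0.998%, 0.970% and 9.45%. Signals were not matched within a class, and the dimmest class spanned mean log2 signals of 6.77 to 10.14.

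**Figure D3:**
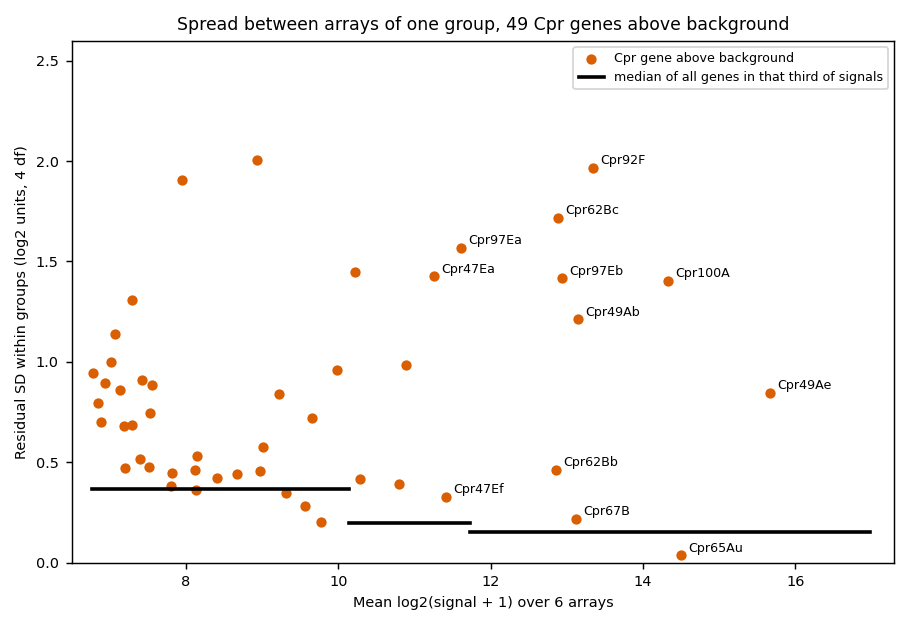
Residual SD within groups of the 49 Cpr genes above background (points, log2 units) against their mean log2 signal over 6 arrays; black bars are the median over all genes in each of the 3 classes of signal. Cpr92F, at 1.97, and most other Cpr genes with high signals lie above the bar, and Cpr65Au, at 0.04, lies below it.

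The comparison of the groups asked whether cuticle protein transcripts differed in flies with driven peptide expression. The test was limma's with a prior variance that follows the signal, and its p-values were adjusted by Benjamini and Hochberg's method across the 18769 probe sets, of which 0.783% passed at 0.05. Of the 66 Cpr genes 0 passed, where 0.868% of all genes did (40 higher and 64 lower in the cross). Of the 49 above background 0 passed, where 0.942% of all such genes did. With a constant prior variance, 0 Cpr genes and 0% of all genes passed. At an unadjusted p under 0.05 there were 9 Cpr genes, where the share over all genes was 13.8%, and 6 with the constant prior, where it was 10.5%. Of the 9, 1 was higher and 8 were lower in the cross. The shares over all genes were 4.63% higher and 9.18% lower. Above background there were 8 Cpr genes of 49, 1 higher and 7 lower, where the shares over all such genes were 14.4% in all, 4.92% higher and 9.48% lower. With the constant prior there were 5 of 49, where the share was 10.4%.

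The 66 members had a median log2 fold change, cross minus control, of -0.08, with 31 higher and 35 lower, against a median of -0.0020 over all genes. For the 49 above background the median was -0.09, with 22 higher and 27 lower, against 0.0069 over all genes above background. The median over the 66 turned to 0.12 without control replicate 2 and to 0.14 without replicate 1 of the cross. It was -0.29 without control replicate 3 and 0.0021 with quantile scaling, so it had no settled sign. Groups did not overlap in 7 lower and 1 higher of the 66, where the shares over all genes were 13.1% and 6.72%. They did not overlap in 6 lower and 1 higher of the 49, where the shares over all genes above background were 13.4% lower and 7.11% higher.

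The member above background with the smallest p was Cpr49Ag. Its signals were 2108.2, 2437.9 and 1338.2 in the control and 620.1, 864.0 and 1036.9 in the cross. All 3 arrays of the cross lay below the 3 control arrays, and the log2 fold change was -1.21 ± 0.27 (SE, n = 3 in each group; limma adjusted p = 0.0962). Cpr72Ec had signals of 734.0, 962.7 and 1043.2 in the control and 413.0, 395.7 and 159.4 in the cross. Its groups did not overlap either, and the log2 fold change was -1.60 ± 0.37 (SE, n = 3 in each group; limma adjusted p = 0.111).

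Cpr67B had signals of 12226.8, 11711.8 and 8744.7 in the control and 7180.8, 6677.3 and 8286.1 in the cross, with the groups apart by a narrow margin. Its log2 fold change was -0.55 ± 0.15 (SE, n = 3 in each group; limma adjusted p = 0.166). Cpr51A was the one gene among the 9 that was higher in the cross, with signals of 1110.6, 1196.7 and 2234.5 in the control and 2227.9, 2206.3 and 2137.7 in the cross. Control replicate 3 lay level with the cross in this gene, and the log2 fold change was 0.61 ± 0.25 (SE, n = 3 in each group; limma adjusted p = 0.363).

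Without control replicate 3, 3 Cpr genes passed: Cpr49Ag (limma adjusted p = 0.0372), Cpr67B (0.0441) and Cpr51A (0.0369). In the same fit 225 of 18769 probe sets passed, against 147 with all 6 arrays. With that array left out, the log2 fold changes were -1.46, -0.70 and 0.93. In the other alternatives no named Cpr gene passed. Without control replicate 3 and replicate 1 of the cross together, an alternative chosen after their values were seen, 0 Cpr genes passed.

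Dimmer members gave bounds or wide intervals. Cpr65Ea had signals of 319.2, 102.5 and 593.8 in the control, and in the cross, at 32.2, 52.9 and 49.8, it lay within the background of each array. It was at least 2.44-fold lower in the cross, measured against the background limits (limma adjusted p = 0.151). Its fitted log2 fold change of -2.59 became -3.28 without control replicate 2 and -2.02 without control replicate 3. Cpr64Ac had signals of 380.0, 264.4 and 102.2 in the control and 47.5, 93.4 and 47.0, within background, in the cross, at least 1.98-fold lower (limma adjusted p = 0.253). Control replicate 3 was also below its own array's limit. Cpr76Bc and Cpr47Eg had log2 fold changes of -1.25 and -1.39 with limma adjusted p of 0.378 and 0.398. The log2 fold change of Cpr47Eg was -2.03 without replicate 2 of the cross and -0.83 without replicate 3. Cpr47Ed had an unadjusted p under 0.05 too, but both groups lay within background and no fold is given.

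The rest of the 12 members above background with the smallest p had an unadjusted p above 0.05. Cpr47Ee had signals of 801.1, 914.7 and 629.1 in the control and 1046.9, 998.4 and 945.1 in the cross, the one member with all arrays of the cross above all controls (log2 fold change 0.37). Cpr67Fb and Cpr5C had log2 fold changes of 0.73 and 1.26, and Cpr64Ad of -0.57, with overlapping groups in each. The value of Cpr5C was 0.54 with control replicate 1 left out and 2.04 with control replicate 3 left out.

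For the members with the highest signals, the spread within groups left the difference poorly bounded. The log2 fold change of Cpr92F was -0.60, with a 95% interval of the difference from -4.36 to 3.16. That of Cpr62Bc was 0.12, from -3.16 to 3.41, and that of Cpr100A 0.66, from -2.03 to 3.35. Differences of several-fold in either direction would not have been detectable in these genes. In contrast, Cpr65Au had a log2 fold change of 0.03 with an interval from -0.19 to 0.25, and Cpr62Bb of -0.29 with an interval from -0.90 to 0.31.

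**Figure D4:**
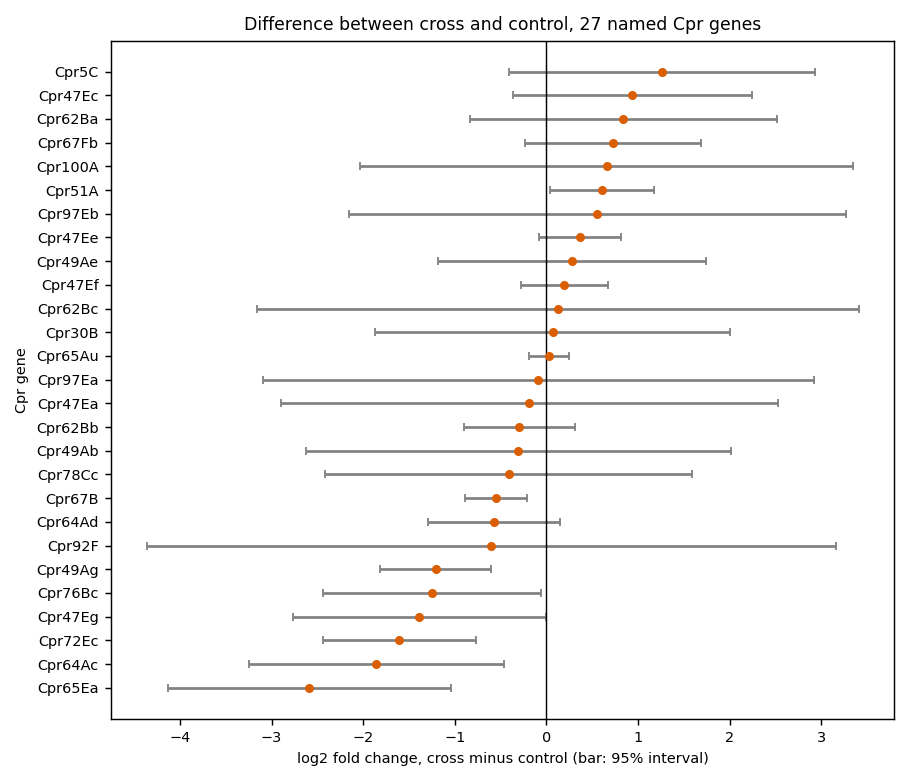
Log2 fold change, cross minus control (points), with its 95% interval from limma (bars), for the 27 named Cpr genes. Intervals are wide for Cpr92F, Cpr62Bc and Cpr97Ea and narrow for Cpr65Au, and no gene passed the test over all probe sets.

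Cuticle proteins outside the Cpr symbols were read from the same fit, by lists chosen with earlier results of these data known. Of 16 measured genes of the same protein family under other symbols (Lcp, Ccp84A, Edg and others), 7 lay above background and 0 passed the test, with 5 higher and 11 lower and a median log2 fold change of -0.58. Of the 7 above background, 3 were higher and 4 lower, with a median of -0.86. An unadjusted p under 0.05 was found in 4 of the 7, all lower, against 9.48% of all genes above background. Pcp, a pupal cuticle protein gene, had signals of 528.1, 570.3 and 546.8 in the control and 348.3, 232.8 and 336.7 in the cross (log2 fold change -0.86, limma adjusted p = 0.200). Ccp84Ac had a log2 fold change of -1.65 (limma adjusted p = 0.186). Acp65Aa, an adult cuticle protein gene named here after its values were seen, had signals of 42440.8, 42094.2 and 4653.8 in the control and 12416.2, 26374.1 and 53782.0 in the cross. Its lowest control array was control replicate 3, as in the 12 Cpr genes with the highest signals.

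Tweedle genes encode another family of cuticle proteins. Of 24 measured, 13 lay above background and 0 passed, with 5 higher and 19 lower and a median log2 fold change of -0.70. An unadjusted p under 0.05 was found in 8 of the 24, all lower in the cross, against 9.18% of all genes. Of the 13 above background, 3 were higher and 10 lower, with a median of -0.98. Such a p was found in 5 of the 13, all lower, against 9.48% of all genes above background. Twdlbeta had signals of 233.7, 249.7 and 406.4 in the control and 43.3, 32.3 and 110.4, within background, in the cross, at least 2.61-fold lower (limma adjusted p = 0.116). TwdlY had a log2 fold change of -1.14 (limma adjusted p = 0.184).

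Chitin-binding proteins of the obstructor and peritrophin type, which line the cuticle or the gut, had 0 of 20 genes past the test, with a median of -0.33. Mur29B had a log2 fold change of -0.63 (limma adjusted p = 0.0793) and Mur11Da of -1.49 (limma adjusted p = 0.320). Of 31 genes of chitin synthesis and modification, 2 fell and 0 rose, where 64 of 11982 genes fell over the whole array, and the median was -0.15. Hexo2, a hexosaminidase that acts on chitin fragments, fell from 5141.8, 4744.8 and 5363.9 to 2947.0, 2890.5 and 3302.1 (limma adjusted p = 0.0274). Cht4, of the chitinase family, fell from 1315.3, 1183.1 and 2045.8 to 437.8, 577.8 and 638.7 (limma adjusted p = 0.0436). Hexo2 passed in 6 of 15 alternatives, with adjusted p from 0.0251 to 0.218 and log2 fold changes from -0.80 to -0.68. Cht4 passed in 4 of 15, with adjusted p from 0.0260 to 0.209 and log2 fold changes from -1.59 to -1.04, and in none of those that left out an array.

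Of 22 genes of cuticle tanning and pigment, which cross-link and colour the cuticle, 0 passed (median log2 fold change -0.08). yellow-b had a log2 fold change of 0.60 (limma adjusted p = 0.190), and Pu, which makes the pterin cofactor used in dopamine synthesis, of -0.42 (limma adjusted p = 0.570). Of 12 genes of cuticular hydrocarbons and wax, 0 passed (median -0.06), snu having a log2 fold change of -0.35 and eloF of -0.29. Of 20 genes of the apical matrix and ecdysis, 0 passed (median -0.44), Vajk4 having -0.996 and ImpL2 0.31.

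The order of arrays seen in Cpr genes occurred in these lists too, at differing shares. Over all genes above background the share was 13.7%, and in the Tweedle genes above background it was lower, at 7.69%. Control replicate 3 was the lowest control array and replicate 1 of the cross the lowest array of the cross in 14 of 30 genes of chitin synthesis and modification above background, 7 of 15 of the obstructor and peritrophin type and 8 of 21 of tanning and pigment. It was so in 6 of 18 genes of the apical matrix and ecdysis, 4 of 11 of hydrocarbons and wax, 2 of 7 of the same family under other symbols and 1 of 13 Tweedle genes. The genes given next were picked with their values in view. The chitin synthase gene kkv had signals of 2501.0, 5529.4 and 640.5 in the control and 815.0, 1760.7 and 2697.4 in the cross. The chitin deacetylase gene verm had 8418.2, 16199.5 and 2170.7 in the control and 2918.2, 7842.2 and 10388.7 in the cross. Cyp4g1, the oenocyte enzyme of the last step of hydrocarbon synthesis, differed less, with 122445, 105740 and 111099 in the control and 107694, 143323 and 146881 in the cross.

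**Figure D5:**
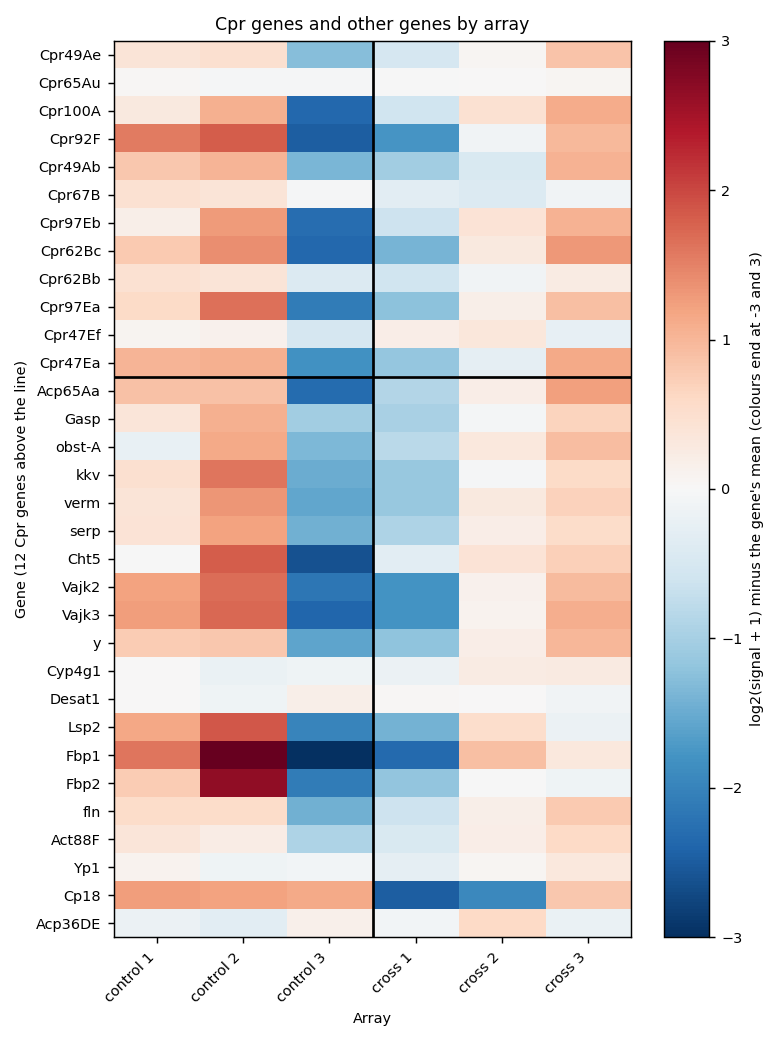
Deviation of log2(signal + 1) from the gene's mean over the 6 arrays (colour, ending at -3 and 3) for the 12 Cpr genes with the highest signals and for 20 other genes chosen after their values were seen. Acp65Aa, kkv, verm and the larval genes Lsp2, Fbp1 and Fbp2 are low on control replicate 3 and replicate 1 of the cross, and Cyp4g1, Desat1, Yp1 and Acp36DE vary little.

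Markers of stages and tissues were read beside these results. The labelled whole adult was checked with 14 measured markers of eye, nerve, muscle, gut, fat body, ovary and male tract, and all 14 lay above background. This check is weak, as 10823 of all 11982 genes passed the same limit. In 5 of the 14 (the muscle genes Act88F, TpnC4 and fln, the gut protease gene Jon25Bi, and Lsp2) the order of arrays was that described for the Cpr genes, a share of 35.7% against 38.8% in the Cpr genes above background. Jon65Aii, another gut protease gene, fell from 23282.5, 19820.9 and 25863.0 to 7253.6, 7122.9 and 10209.0 in the cross (limma adjusted p = 0.00687). With the constant prior 0 genes passed, so Jon65Aii did not, and its other alternatives were not read. Of 22 larval and pupal markers, 5 lay above background, and the summed signal of the 22 ranged from 1852.9 to 14580.6 in the control and from 1935.7 to 4780.5 in the cross. The salivary glue genes Sgs1, Sgs3, Sgs4, Sgs7 and Sgs8 had means within background, with Sgs4 and Sgs8 above the limit on 1 control array each. Lsp2, a storage protein gene of the larval fat body with some adult expression, had signals of 3797.4, 6174.1 and 429.3 in the control and 633.5, 2449.3 and 1489.1 in the cross. Fbp1, the larval fat body receptor of storage proteins, had 1200.1, 3180.4 and 34.4 in the control and 77.1, 740.4 and 489.4 in the cross. Fbp2 had 1049.0, 3945.7 and 143.4 in the control and 272.1, 619.6 and 565.3 in the cross. These were 3 of the 5 larval and pupal markers above background, and 4 of all 22, in which control replicate 3 and replicate 1 of the cross were the lowest of their groups. Eig71Ee, above background too, had 123.1, 208.9 and 298.3 in the control and 293.3, 222.4 and 200.2 in the cross, without that order. The part of these markers in the Cpr values was not tested.

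The summed signal of 14 ovary and eggshell markers ranged from 582833 to 810202 in the control and from 460729 to 857098 in the cross. That of 22 male reproductive tract markers ranged from 406487 to 542952 in the control and from 498035 to 744303 in the cross. Of the ovary and eggshell markers 2 were higher and 12 lower in the cross, with a median log2 fold change of -0.17 and 0 past the test, among them the eggshell genes Cp15 at -0.75 and Cp18 at -2.39 (limma adjusted p = 0.364 and 0.400). Of the male markers 20 were higher and 2 lower, with a median of 0.27, and 4 had an unadjusted p under 0.05, all higher. Over all genes 5963 were higher and 6019 lower, and 4.63% had such a p and were higher. The part of these marker shifts in the cuticle gene values was not tested. None of the male markers had the order of arrays seen in the Cpr genes (0 of 22), and 3 of 14 ovary and eggshell markers had it. Dup99B, an ejaculatory duct peptide gene, rose from 18553.5, 13874.0 and 16246.9 to 28258.2, 42949.3 and 31527.0 in the cross (limma adjusted p = 0.0322). With the constant prior Dup99B did not pass, and its other alternatives were not read. In whole flies, fewer cells of a type and less RNA per cell cannot be told apart.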

How the data were processed

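The deposited table gave 1 linear intensity a probe set and array. How the authors summarised, background-corrected and scaled the probes is not given in the sources used, but the mean signal without the top and bottom 2% was 2500.1 on each of the 6 arrays. Per the labels' protocols, 2 ug of total RNA was labelled with biotin for each array. Array medians were 847 to 865 in the control and 767 to 903 in the cross, and correlations of log2 signals between arrays were 0.945 to 0.958. The number of arrays limits the precision.

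After 183 control probe sets were left out, 18769 probe sets were tested. Genes were named from the platform annotation through probe sets with 1 symbol (13647, of which 13544 matched the Release 6 gene table, used for current symbols and gene order), 402 having several symbols and 4720 none. For genes with several probe sets, the brightest by mean log2 signal was used. The log2(signal + 1) values of cross and control were compared in R 4.3.3 with limma 3.58.1 (lmFit, then eBayes with a trended and robust prior), 2-sided, with Benjamini-Hochberg adjustment. The log2 scale with a pseudocount of 1 understates changes of low signals a little. Low signals also varied more within groups, with a median residual SD of 0.36 in the dimmest class and 0.15 in the brightest. Large fold changes of dim genes are therefore uncertain.

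Named Cpr genes were all that passed, the 12 with the highest mean log2 signals, the 12 above background with the smallest p, and the 3 on each side of the background limit. For the other lists they were those that passed or else the 2 above background with the smallest p. Members, lists and the choice of the trended prior were made with earlier results of these data known. Alternatives were a constant prior, the replicate number as a block, quantile scaling, centring on the median, 16 as the pseudocount, a filter on the lower tertile of probe sets, other background limits, dropping multi-transcript probe sets, averaging a gene's probe sets, and dropping arrays.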

Additional observations from a re-analysis of the deposited data

How the results depend on the processing

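The count of probe sets past the test, 147, fell to 0 with a constant prior, to 9 without control replicate 3 and replicate 1 of the cross, and to 8 with the replicate block, and with 1 array left out it lay between 7 (control replicate 1) and 225 (control replicate 3). Leaving out replicate 1 of the cross gave 11 and leaving out control replicate 2 gave 20. The count of Cpr genes past the test ranged from 0 to 3 with 1 array left out, 3 without control replicate 3, and was 0 otherwise, with the replicate block too. At an unadjusted p under 0.05 it ranged from 4, without the lower tertile of probe sets, to 12, without control replicate 3. The fit without the lower tertile left out the dimmer Cpr genes, so its 4 are not out of 66. Shares over all genes in these 2 fits were not read. The labels number the samples but state no pairing, so the block is not read as a paired test. Correlations of same-numbered deviations were -0.02, 0.00066 and -0.10. With 3 arrays a group, they cannot decide whether samples of one number shared their handling. The number of Cpr genes above background ranged from 31, at the lower tertile of all probe sets, to 64, at the median Bacillus probe set. The count of genes of the 7 cuticle-related lists past the test, 2, was 1 with the mean of probe sets, median centring or quantile scaling, 0 with a constant prior, the replicate block or without control replicate 3 and replicate 1 of the cross, and ranged from 0 to 1 with 1 array left out.

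With 1 array left out, the median log2 fold change of all Cpr genes ranged from -0.29 to 0.14 and that of those above background from -0.42 to 0.14. Ranges were -0.60 to -0.0323 for the obstructor and peritrophin type, -0.56 to 0.0117 for chitin synthesis and modification and -0.61 to -0.25 for the apical matrix and ecdysis list. Without the lower tertile of probe sets the median was -0.25 for the family under other symbols, -1.04 for Tweedle genes and -0.33 for the apical matrix and ecdysis list. Without control replicate 3 and replicate 1 of the cross, the last was -0.30.

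Of 29 named genes in the alternatives, 17 kept their sign and 12 did not. With 1 array left out, log2 fold changes ranged from -0.29 to 0.60 for Cpr49Ae, -0.35 to 1.36 for Cpr100A, -1.99 to 0.16 for Cpr92F, -1.07 to 0.15 for Cpr49Ab, -0.45 to 1.33 for Cpr97Eb, -1.02 to 0.86 for Cpr62Bc, -1.16 to 0.72 for Cpr97Ea, -0.0023 to 0.37 for Cpr47Ef, -1.14 to 0.35 for Cpr47Ea, -0.73 to 0.86 for Cpr30B, -1.004 to 0.65 for Cpr78Cc. Cpr65Au was at -0.0069 with quantile scaling, and without control replicate 3 and replicate 1 of the cross Cpr97Eb, Cpr62Bc and Cpr47Ef were at -0.0030, -0.29 and -0.0549. The causes were not tested.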

Other observations

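Among the 3608 genes in the brightest of 3 equal classes above background, the 15 with the largest residual SD within groups were listed after their values were seen. Of these, 4 were Cpr genes (Cpr92F, Cpr62Bc, Cpr97Eb and Cpr100A). Control replicate 3 was the lowest control array in all 15, and replicate 1 of the cross was the lowest array of the cross in 14. Vajk3 and Vajk2 had signals of 1882.9 and 3023.0 on control replicate 3 and of 32647.7 and 43417.6 on control replicate 2. The unnamed gene CG8736 had 2453.3 and 46139.5 on these arrays. dyw had 517.2 and 12510.1, with 6229.0, 6922.1 and 11826.2 in the cross. Cp18, an eggshell gene, was the one on the list with close control arrays, at 29711.3, 28476.3 and 27212.1, and its signals in the cross were 2251.8, 3231.2 and 21901.8.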
